A study of Mus musculus with 21 samples.

Results

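The 9 genes described here, of 202 to 1612 kb, are among the 21887 protein-coding genes of the mouse: Pde4b, Fhit, Ptprg, Thada, Auts2, Foxn3, Macf1, Ext1 and Antxr1. They were chosen by the number of binding regions of the transcription factor C/EBPα that were found in both WT libraries and in neither library of hepatocytes lacking Arid1a. That choice used the C/EBPα lists, so the counts of missing regions below describe the 9 genes and test nothing. The tested libraries are from KO mice, Arid1a Fl/Fl with Alb-cre, in which the albumin promoter drives Cre recombinase in hepatocytes and their albumin-expressing lineage. Peak lists cannot show whether Arid1a was deleted, so genotypes are as labelled. The animals they are set against, called WT, carry Arid1a Fl/Fl without Cre. A separate line, V5-Arid1a, carries a V5 tag on Arid1a. All were of a C57/B6 and 129 mixed background, and hepatocytes were perfused at postnatal day 90. Chromatin immunoprecipitation with sequencing (ChIP-seq) gave peak lists for C/EBPα (2 KO and 2 WT libraries), for histone H3 dimethylated at lysine 4 (H3K4me2; 3 KO and 3 WT libraries) and for V5-ARID1A (1 library).

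ARID1A is a DNA-binding subunit of the SWI/SNF (BAF) complexes, which slide and evict nucleosomes and so open enhancers. C/EBPα is a basic leucine zipper factor that binds such enhancers in differentiated hepatocytes and drives plasma protein and metabolic genes. H3K4me2 lies on promoters and on enhancers that are active or primed. Long genes carry most of their possible enhancers in large introns, far from any start site.

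Of the 6 hepatocyte markers fixed for a check of the cells (Alb, Ttr, Apoa1, Cps1, Hnf4a and Tat), 6 had a C/EBPα region in all 4 lists and 6 had H3K4me2 in all 6 lists. Of 5 endothelial, 5 stellate cell, 4 Kupffer cell or leukocyte and 4 biliary markers, 3, 0, 1 and 0 had such a C/EBPα region, and 1, 0, 0 and 1 had H3K4me2 in all lists. Whether other cells took part in the results below was not tested. For C/EBPα there were 16178 and 17781 peaks in the KO lists, against 17733 and 23646 in the WT lists. The H3K4me2 lists ran from 24908 peaks in KO library 1 to 175797 in KO library 3, whose median peak of 429 bp was the narrowest of the 6. In bulk cells such as these, fewer cells with a bound site and weaker binding per cell cannot be told apart.

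A window is a gene body with 10 kb on each side, in RefSeq coordinates of GRCm38 (mm10). C/EBPα peaks that shared 1 bp were merged into regions. A region found in both WT lists is lost if it is absent from both KO lists, and retained if it is present in 1 or 2 of them. The 9 windows held 79 regions of both WT lists, of which 41 were lost and 38 retained, 33 of those in both KO lists. The lost share was 51.9% (exact binomial 95% interval 40.4 to 63.3, counting error only), against 19.3% of the 16529 such regions in the genome. The genes were chosen for such losses, so the interval does not test a difference from the genome. Within these windows lay 45 and 47 C/EBPα peaks in KO and 89 and 104 in WT, with no overlap between genotypes, which the choice of genes favours. That was 0.278% and 0.264% of the KO lists and 0.502% and 0.440% of the WT lists. Gained regions, found in both KO lists and no WT list, numbered 0 of 39, which allows a share of up to 7.69%, against 5.27% in the genome.

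**Figure D1:**
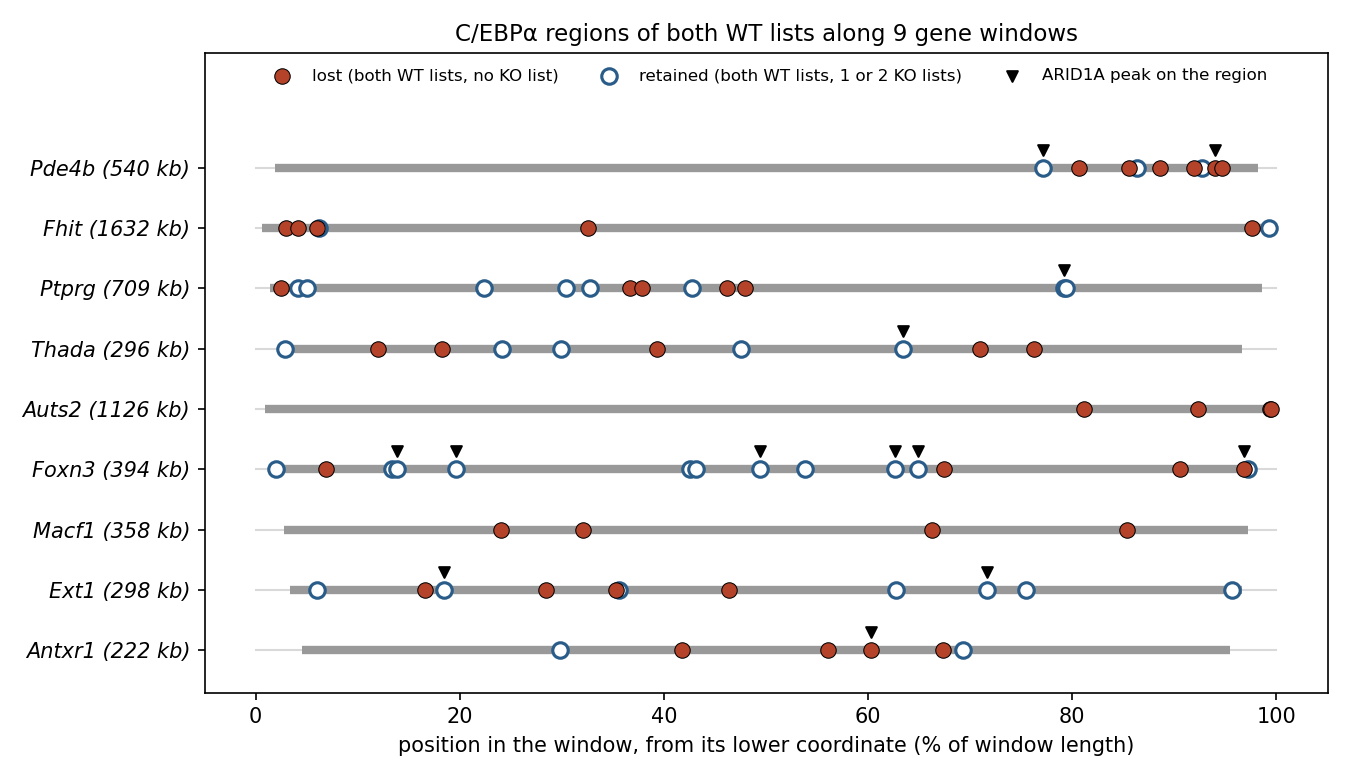
Positions of the 79 C/EBPα regions of both WT lists along the 9 windows, as a percentage of each window's length from its lower coordinate. Filled circles are the 41 lost regions, open circles the 38 retained ones, triangles mark an ARID1A peak on a region, and the thick grey bar is the gene body. Auts2 and Macf1 show lost regions alone.

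Every one of the 9 windows had 4 to 6 lost regions. In the whole annotation 18 genes reached 4, which is 0.234% of the 7686 genes with a region in both WT lists, and the remaining 9 were left out of the group. Of those 9, Scara5 (7 of 8 lost), Capn8, Cdh1 and Fam222a (4 of 4 each) are under 200 kb. Pard3b (5 of 7), Itpr2 (4 of 5), Maml3 (4 of 6), Plce1 (4 of 7) and Pard3 (4 of 19) are longer than 200 kb, so the group is a selection from the long genes with this pattern. Just below, 56 genes had 3 lost regions, 30 of them longer than 200 kb.

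Pde4b (chromosome 4, 102087332 to 102607275) encodes a phosphodiesterase that breaks down cyclic AMP, the second messenger of glucagon. It had 2 and 2 C/EBPα peaks in KO against 9 and 13 in WT. Of 9 regions of both WT lists 6 were lost, 1.11 per 100 kb, and all 6 lay within 76.1 kb near the higher-coordinate end of the gene. That stretch holds alternative start sites of Pde4b, and another lies 910 bp beyond its higher-coordinate end. The lost region at chr4:102588230-102588933, 430 and 685 bp wide in the WT lists, ends the stretch. It lies between that outer start site and one inside the stretch, 672 bp away. Another lost region, chr4:102584680-102585356, carried an ARID1A peak and H3K4me2 in 3 KO and 3 WT lists. The 250 bases before 3 start sites are shown because these sites lay nearest to a lost region among the 11 that the promoter table lists for the 9 genes. They are RefSeq sequences of GRCm38.p6, plus strand, 5′ to 3′. Capitals mark GCAAT or its reverse complement ATTGC, one side of the C/EBP palindrome, a search added after the values were seen.
chr4:102569810-102570059: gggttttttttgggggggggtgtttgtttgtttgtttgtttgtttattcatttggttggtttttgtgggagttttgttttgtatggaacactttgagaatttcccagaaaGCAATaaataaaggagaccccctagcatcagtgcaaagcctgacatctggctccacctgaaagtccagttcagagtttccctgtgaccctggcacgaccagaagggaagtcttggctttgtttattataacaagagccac
chr4:102587308-102587557: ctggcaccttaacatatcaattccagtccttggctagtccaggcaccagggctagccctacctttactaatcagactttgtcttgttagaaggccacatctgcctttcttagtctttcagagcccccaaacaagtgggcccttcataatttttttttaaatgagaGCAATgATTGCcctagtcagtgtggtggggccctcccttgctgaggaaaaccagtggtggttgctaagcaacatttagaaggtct
chr4:102589593-102589842: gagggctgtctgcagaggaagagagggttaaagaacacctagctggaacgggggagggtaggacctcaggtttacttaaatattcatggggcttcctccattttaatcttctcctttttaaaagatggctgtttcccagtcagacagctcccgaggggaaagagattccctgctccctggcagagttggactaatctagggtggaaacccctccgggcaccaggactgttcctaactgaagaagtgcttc

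A start window here is these 250 bases and the 50 that follow the start. The first of the 3 had H3K4me2 in 1 KO and 3 WT lists, the second in 1 KO and 2 WT lists and the third in 1 KO and 1 WT list. None had a C/EBPα or ARID1A peak. The 11 start sites belong to 6 of the 9 genes (Pde4b, Macf1, Foxn3, Fhit, Ptprg and Thada). The palindrome core TTGCNNAA, or TTNNGCAA on the other strand, was in the 250 bases before 0 of the 11, and of 9.56% of all 32851 promoters listed. GCAAT or ATTGC was before 3 of the 11, and before 23.1% of all promoters. No peak sequence was analysed here.

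Ptprg (chromosome 14, 11553440 to 12242041) encodes a receptor tyrosine phosphatase with a carbonic anhydrase-like extracellular domain. It had 11 and 12 C/EBPα peaks in KO against 16 and 17 in WT. Of 13 regions 5 were lost, 0.706 per 100 kb, and 8 were in all 4 lists. The lost ones were narrow, with means over the WT lists between 299.5 and 423.5 bp, and none carried ARID1A.

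Fhit (chromosome 14, 9550092 to 11162061) encodes a diadenosine triphosphate hydrolase and spans a chromosomal fragile site. It had 2 and 4 C/EBPα peaks in KO against 8 and 12 in WT. Of its 7 regions 5 were lost, but over 1632 kb this is 0.306 per 100 kb, the lowest of the 9. At the low-coordinate side 3 lost regions lay within 50.7 kb (chr14:9587815-9638477), and the 2 lowest had H3K4me2 in 0 KO lists and in 2 and 3 WT lists. The region 2366 bp from the upstream-most start site was in all 4 lists.

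Foxn3 (chromosome 12, 99190081 to 99563667) encodes a forkhead factor that represses transcription. It had 12 and 12 C/EBPα peaks in KO against 17 and 17 in WT. With 4 of 15 regions lost (26.7%, counting interval 7.79 to 55.1) it had the lowest lost share of the 9. ARID1A lay on 5 of its 11 retained regions and on the lost region at chr12:99560977-99561481, where H3K4me2 was in 3 KO and 3 WT lists. The longest run, 3 lost regions in 116 kb with no retained one between them, ended there.

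Auts2 (chromosome 5, 131437333 to 132543220) encodes a protein best known from neurons, where it joins Polycomb complexes. It had 1 and 1 C/EBPα peaks in KO against 6 and 5 in WT. All 4 regions of both WT lists were lost, 0.355 per 100 kb, and of the 934 genes with at least 4 such regions 0.535% lost them all. The outer 2 lay 2511 and 3638 bp beyond the higher-coordinate end of the gene and 659 bp from each other. H3K4me2 was in 1 WT list at each of the 4 regions and in 1 KO list at 1 of them, and the window had no ARID1A peak.

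Macf1 (chromosome 4, 123349633 to 123687802) encodes a spectraplakin that links actin to microtubules. It had 0 and 1 C/EBPα peaks in KO against 4 and 5 in WT, and all 4 regions of both WT lists were lost (1.12 per 100 kb), spread over 220 kb. Auts2 and Macf1 were the members with no retained region. Its 2 ARID1A peaks lay away from these regions.

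Ext1 (chromosome 15, 53068261 to 53346183) encodes a glycosyltransferase that builds heparan sulfate. It had 10 and 10 C/EBPα peaks in KO against 11 and 15 in WT. Of 11 regions 4 were lost, 1.34 per 100 kb, and 7 were in all 4 lists. Its lost regions had mean WT widths between 267.0 and 363.5 bp and included the narrowest of the 41.

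Antxr1 (chromosome 6, 87133853 to 87335809) encodes a collagen-binding membrane receptor that anthrax toxin uses. It had 2 and 2 C/EBPα peaks in KO against 6 and 8 in WT. Of 6 regions 4 were lost, at 1.80 per 100 kb the highest rate of the 9. They stood in an unbroken run of 57.1 kb (chr6:87216384-87273509) with a region of all 4 lists on each side. The lost region at chr6:87257387-87257912, carried ARID1A and had H3K4me2 in 0 KO and 2 WT lists.

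Thada (chromosome 17, 84190056 to 84466246) encodes a large protein that is fused by translocation in human thyroid adenomas. It had 5 and 3 C/EBPα peaks in KO against 12 and 12 in WT. Of 10 regions 5 were lost, 3 were in all 4 lists and 2 in 1 KO list, giving 1.69 lost regions per 100 kb. The lost ones were spread over 191 kb, none with ARID1A.

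**Figure D2:**
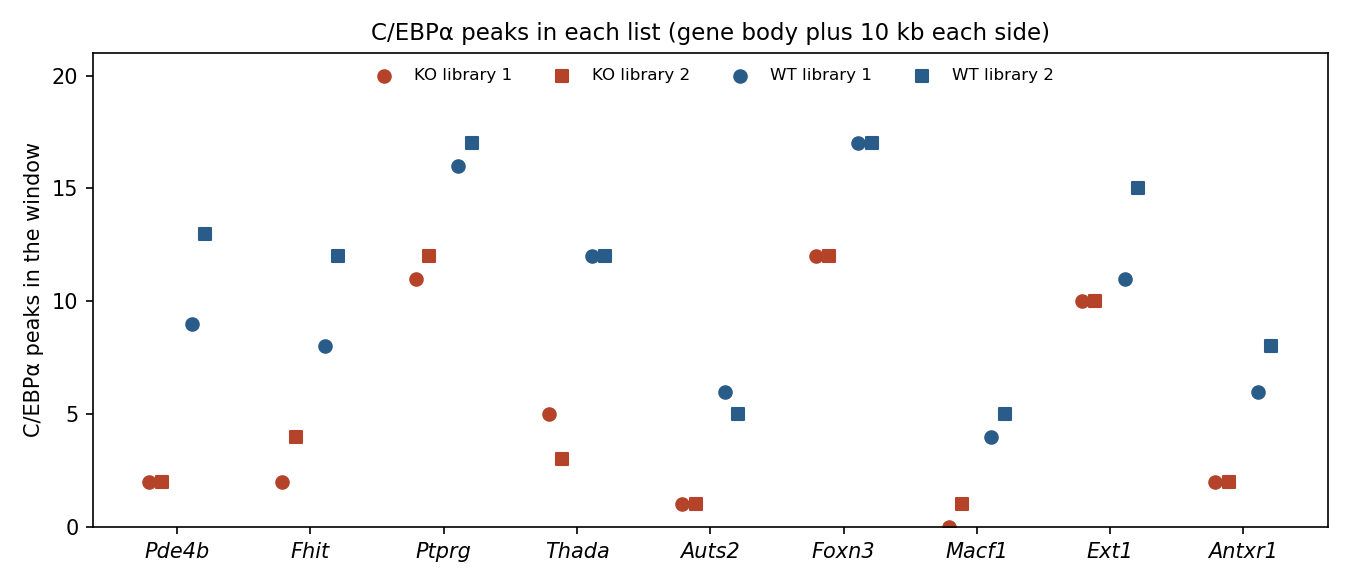
C/EBPα peaks in each gene window (y axis, number of peaks) for the 2 KO and 2 WT libraries, 1 point per library. Both KO libraries lie below both WT libraries for each of the 9 genes. The choice of genes favours this, and the share of all genes with this order is not given here. Macf1 has 0 and 1 in KO, and Foxn3 12 and 12.

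Genes of 0.5 to 2 times the length mostly had no lost region at all. Their median was 0 lost regions per 100 kb for each of the 9 genes, and their 90th percentile ran from 0.220 (for Fhit) to 0.720 (for Antxr1). Pde4b was matched or passed in lost regions per 100 kb by 1 of 628 genes of like length, Fhit by 2 of 95 and Macf1 by 11 of 1095. Of these genes 238, 28 and 442 had no region in both WT lists and so could not lose one. Among like-length genes with at least 5 regions in both WT lists, the median lost share ran from 12.5% (for Antxr1) to 28.6% (for Fhit). All 9 genes stood above that median, which their choice favours, although Auts2 and Macf1 have only 4 regions. Foxn3 was matched or passed by 38 of 149 such genes and Ext1 by 29 of 195. The 9 genes held more C/EBPα regions of both WT lists, which their choice also favours, since each lost region counts among these. Foxn3 had 3.81 per 100 kb against a median of 0.330, and Auts2 0.355 against 0.173. Of the like-length genes behind these medians, 387 of 970 for Foxn3 and 59 of 184 for Auts2 had no such region. The pattern of Fhit was met exactly by Pard3b, with 5 of 7 lost. Nearest to Auts2 was Sdk1, with 3 of 4, and to Foxn3 Itpr1, with 3 of 16, by distance over the 2 counts. By the same distance Pard3b was also nearest to Pde4b, Sox5 (3 of 12) to Ptprg, Rapgef2 (3 of 10) to Thada and Ext1, Iqsec1 (3 of 4) to Macf1 and Sntg2 (3 of 6) to Antxr1. For those last 4 genes 5, 5, 4 and 3 genes stood at the same distance, and the one named is the closest of them in length.

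**Figure D3:**
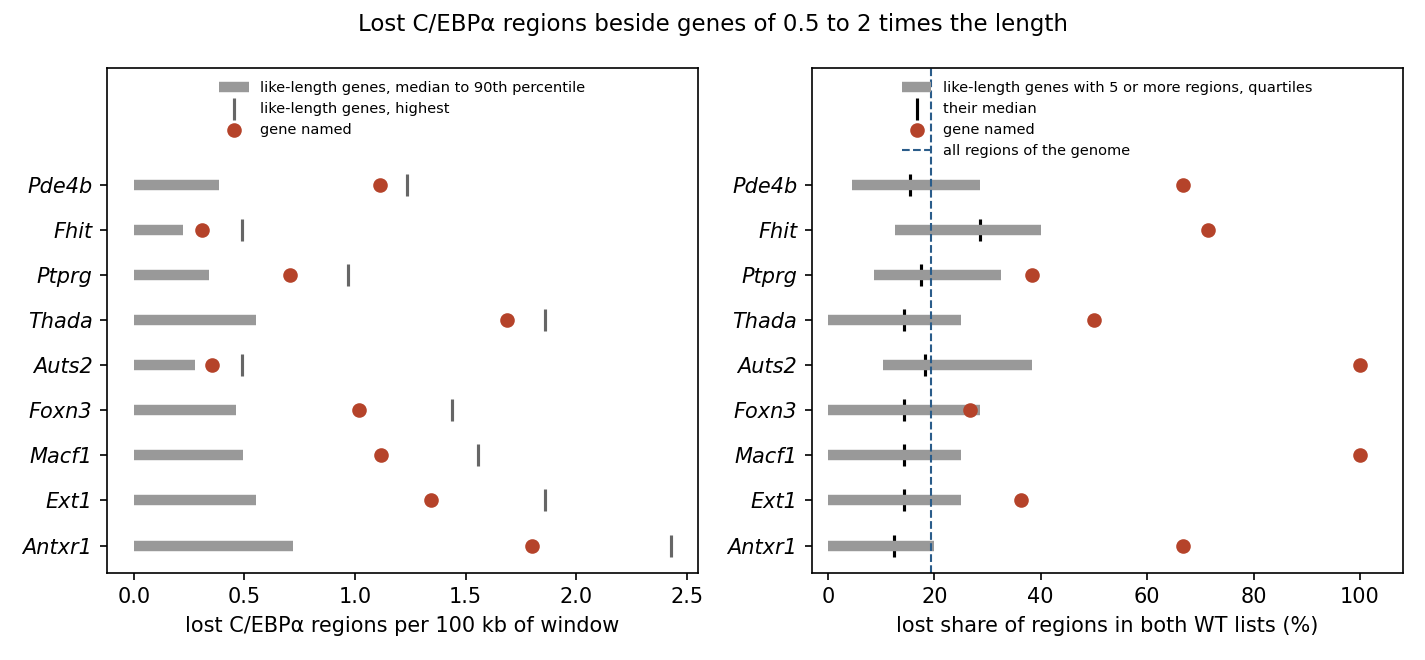
Left, lost C/EBPα regions per 100 kb for each gene (point) beside genes of 0.5 to 2 times its length (bar, median to 90th percentile; tick, highest). Right, the lost share of regions in both WT lists in percent, beside like-length genes with 5 or more regions (bar, quartiles; tick, median) and all regions of the genome (dashed line at 19.3%). Each of the 9 points lies right of the median of its like-length genes, which the choice of genes favours.

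Across the genome, lost shares were higher in longer genes, also without these 9. Each region was put in the class of the longest gene whose window held it. The lost share was 13.4% for genes up to 50 kb, 15.4% for 50 to 100 kb, 18.2% for 100 to 200 kb, 21.7% (19.6 to 23.8) for 200 to 500 kb and 23.9% (20.6 to 27.4) over 500 kb, the last 2 classes without the 9 genes. Regions in no gene window were lost in 27.0% (25.6 to 28.3). H3K4me2 in at least 2 WT lists stood on 78.0%, 73.8%, 68.6%, 64.2% and 56.1% of the regions of those length classes, and on 57.7% of the regions in no window. Median peak width moved little, between 398.0 and 409.5 bp. These shares are over regions of the same 4 lists and were not tested.

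Losses were also counted in relatives of the 9 genes and in other long genes. Among 19 paralogs of the 9 genes, 8 had a region in both WT lists, and 9 of their 28 such regions (32.1%) were lost. Apart from these 28, the paralogs had 3 gained regions. Losses fell on Dst, a second spectraplakin (3 of 5), Antxr2 (2 of 5), Pde4d (2 of 12), Extl2 (1 of 1) and Extl3 (1 of 1). In a fixed list of 25 other long genes 26 of 214 regions of both WT lists were lost, 12.1%, below the 19.3% of the genome. That was also below the 21.7% and 23.9% of the length classes of 200 to 500 kb and over 500 kb. Apart from the 214, these genes had 10 gained regions. The gained counts are given without a share of regions in both KO lists. This list therefore does not stand for long genes at large, and its Egfr (162 kb) and Tcf7l2 (192 kb) are shorter than 200 kb. The most lost were in Pard3, a polarity protein gene, with 4 of 19. Rora, which encodes an orphan nuclear receptor of the clock, kept 22 of 24.

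Lost regions of the 9 genes were narrower than retained ones. Their WT peaks had a median width of 382.5 bp (range 267.0 to 573.0), against 473.0 bp (320.0 to 1049.5) for retained regions, and 353.5 against 420.5 bp in the rest of the genome. Below the median width of 406 bp, 24 of 38 regions were lost (63.2%), against 28.0% in the genome. At or above it, 17 of 41 were lost (41.5%), against 10.6%. With the 16178 widest peaks of each list, 27 of 61 regions were lost (44.3%, against 15.0% in the genome), with 0 in Ext1, 2 in Macf1 and 3 each in Ptprg, Thada, Auts2 and Antxr1. With peaks of at least 395 bp, 19 of 36 were lost (52.8%, against 17.7%), with 0 in Ptprg and 1 each in Ext1 and Macf1. Leaving out WT library 1, so that a peak in WT library 2 was enough, gave 10 lost regions in Pde4b and 8 in Fhit. The lost share was then 55.8% in the 9 genes and 30.1% in the genome.

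Of the 41 lost regions, 39 lay inside the gene bodies and the other 2 beyond the higher-coordinate end of Auts2. Exons and introns were not analysed here. The other protein-coding genes that reach into the windows are Zfp36l2 (Thada), Gm51999 (Foxn3), Bmp8a and D830031N03Rik (Macf1) and Gkn1 (Antxr1).

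The deposited C/EBPα peaks keep numbers from a longer list, of which 40.0% to 40.1% of the numbers remain, and numbers rise down each list. Between neighbouring KO peaks, the missing numbers give the most peaks that can have been removed there before deposit. Around the run of Antxr1, neighbouring peaks lay 87.3 kb apart in each KO list with 1 number missing, so at least 3 of its 4 lost regions had no numbered peak in KO library 1, and at least 3 in KO library 2. In Pde4b this held for at least 4 of 6 lost regions in KO library 1 and at least 2 in KO library 2. In Foxn3 and in Thada it held for at least 2 in KO library 1 and 1 in KO library 2, and in Ptprg for at least 2 and 0. In Ptprg no number was missing over the 70.5 kb that hold the lost regions of chr14:11803320-11811746 in KO library 1. In Auts2, Fhit, Macf1 and Ext1 as many numbers or more were missing as regions were lost, such as 12 and 13 in Macf1, so the bound is 0. Over the 9 genes at least 13 of 41 lost regions (31.7%) had no numbered peak in KO library 1 and at least 7 (17.1%) in KO library 2, against 7.36% and 7.67% of lost regions of the genome. The bound rises by construction where several lost regions fall between the same 2 peaks.

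ARID1A, mapped once in V5-Arid1a hepatocytes and not used to choose the genes, lay on 3 of 41 lost regions (7.32%, exact 95% interval 1.54 to 19.9) and on 10 of 38 retained ones (26.3%, 13.4 to 43.1). The rest of the genome had 6.07% of 3148 lost and 28.5% of 13302 retained regions with ARID1A. The 3 lost regions were those named in Pde4b, Antxr1 and Foxn3. Of the 10 retained ones 5 were in Foxn3, 2 in Ext1 and 1 each in Pde4b, Ptprg and Thada. In Auts2 and Fhit there was no ARID1A peak anywhere in the window. ARID1A has a single library, so these counts have no replicate check.

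H3K4me2 peaks stood on a smaller share of the lost than of the retained regions in each of the 6 lists, a difference that was not tested. Of the 41 lost regions 2, 15 and 10 had a peak in KO libraries 1, 2 and 3, and 17, 23 and 15 in WT libraries 1, 2 and 3. KO library 2 equalled WT library 3, so the genotypes meet. Of the 38 retained regions it was 11, 34 and 22 in KO and 28, 34 and 26 in WT. At least 2 lists of a genotype marked 7 lost regions in KO (17.1%, 7.15 to 32.1) and 18 in WT (43.9%, 28.5 to 60.3), and 23 retained regions in KO (60.5%) and 30 in WT (78.9%). The rest of the genome had 14.9% of lost regions so marked in KO and 38.1% in WT, and 61.7% of retained regions in KO and 75.8% in WT. Without KO library 2 or 3 the share of lost regions marked in both remaining KO lists was 4.88%, and without WT library 2 the WT share was 26.8%. No mark in any of the 6 lists stood on 11 lost and 3 retained regions.

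H3K4me2 was in at least 2 WT lists and in 0 KO lists at 7 lost regions, 17.1% of them against 11.7% of lost regions in the rest of the genome. They were 2 in Fhit and 1 each in Antxr1, Ext1, Foxn3, Macf1 and Thada. The one in Foxn3, chr12:99536360-99536885, and one in Fhit, chr14:9606892-9607406, had the mark in 3 WT lists. Among retained regions 0 of 38 had this pattern, which allows up to 7.89%, against 3.04% in the rest of the genome.

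**Figure D4:**
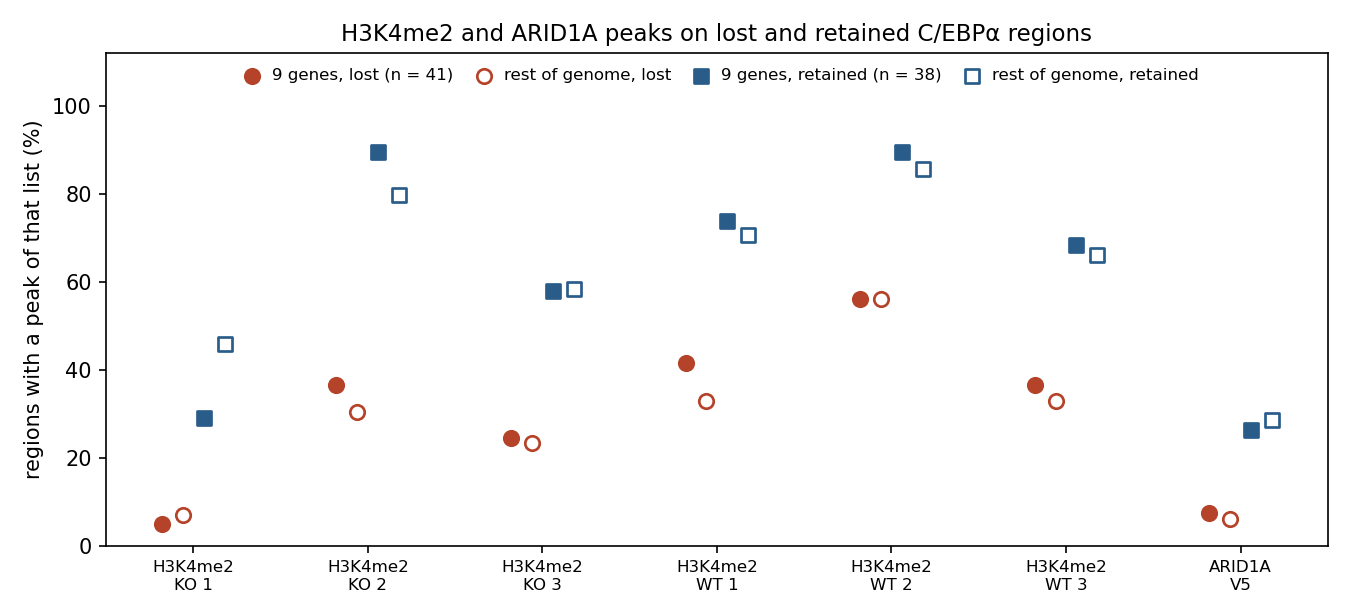
Share of C/EBPα regions (y axis, percent) with a peak in each of the 3 KO and 3 WT H3K4me2 lists and in the ARID1A list. Filled symbols are the 41 lost and 38 retained regions of the 9 genes, open symbols those of the rest of the genome. Retained regions lie above lost ones in each of the 7 lists.

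Over whole windows, H3K4me2 was compared as marked bp per Mb marked in the list, which scales each value to its list. The median log2 ratio of KO to WT was -0.35 over the 9 genes and -0.01 over 17190 genes with the mark in both genotypes, and the KO mean was lower for 7 of 9 genes and for 51.1% of all. No gene can pass: the smallest p of an exact permutation test of 3 against 3 is 0.1, and with Benjamini-Hochberg adjustment over 19973 genes 0 passed, with 0 at an unadjusted p under 0.05. All KO lists lay below all WT lists for Thada and Ptprg, against 3.54% of all genes. The opposite held for 0 of the 9 and for 1.29% of all.

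Thada had 257, 210.5 and 212 marked bp per Mb in KO against 301, 273 and 289 in WT, a mean of 226 ± 26.6 against 288 ± 14.4 (SD, n = 3 each; log2 ratio -0.35, two-sided exact permutation p = 0.1, adjusted p = 1). In its gene body alone, without the flanks, the log2 ratio was -0.86. Ptprg had 283, 326 and 364 in KO against 393, 381 and 479 in WT, a mean of 324 ± 40.6 against 418 ± 53.8 (log2 ratio -0.36, exact permutation p = 0.1, adjusted p = 1). The gap in both exceeded the SD of either genotype. As percent of the window marked, with no scaling to the list, no gene of the 9 parted the genotypes, against 0.906% of all genes with all KO lists below and 0.105% above.

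Foxn3, the most marked of the 9 by this measure in WT, had 277, 482 and 348 marked bp per Mb in KO against 441, 563 and 562 in WT, and KO library 2 lay above WT library 1 (log2 ratio -0.50, exact permutation p = 0.2). Ext1 had 256, 364 and 278 against 284, 414 and 388 (log2 ratio -0.28, exact permutation p = 0.2). Pde4b had 4.71, 425 and 239.8 in KO against 296, 452 and 351 in WT (log2 ratio -0.72, exact permutation p = 0.4). KO libraries 1 and 3 lay below every WT library, and KO library 2 lay among them. The size of the difference depended on which KO library was left out: the log2 ratio was -0.14 without KO library 1, which has 1 peak in the window, and -1.58 without KO library 2 (exact permutation p = 0.1, the smallest possible). Antxr1 had 15.2, 62.8 and 79.1 in KO against 81.9, 97.0 and 52.7 in WT (log2 ratio -0.56, exact permutation p = 0.4), or -0.12 without KO library 1 and -0.99 without KO library 3. Macf1 had 245, 471 and 293 in KO against 259, 469.7 and 333 in WT, and overlapped almost wholly (log2 ratio -0.075, exact permutation p = 0.8). Its direction turned under the unscaled measure, at 0.080.

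Fhit and Auts2 had higher KO means than WT means, and lower ones without KO library 3. Fhit had 131, 81.7 and 493 marked bp per Mb in KO against 144, 174 and 179.7 in WT (log2 ratio 0.50, exact permutation p = 1), with 117 small peaks in that library against 3 and 7 in the other KO lists. Without it the log2 ratio was -0.64, with KO lists 1 and 2 below every WT list (exact permutation p = 0.1). Auts2 had 5.64, 95.3 and 279 in KO against 21.1, 105 and 45.9 in WT (log2 ratio 1.15, exact permutation p = 0.7), and -0.18 without that library.

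**Figure D5:**
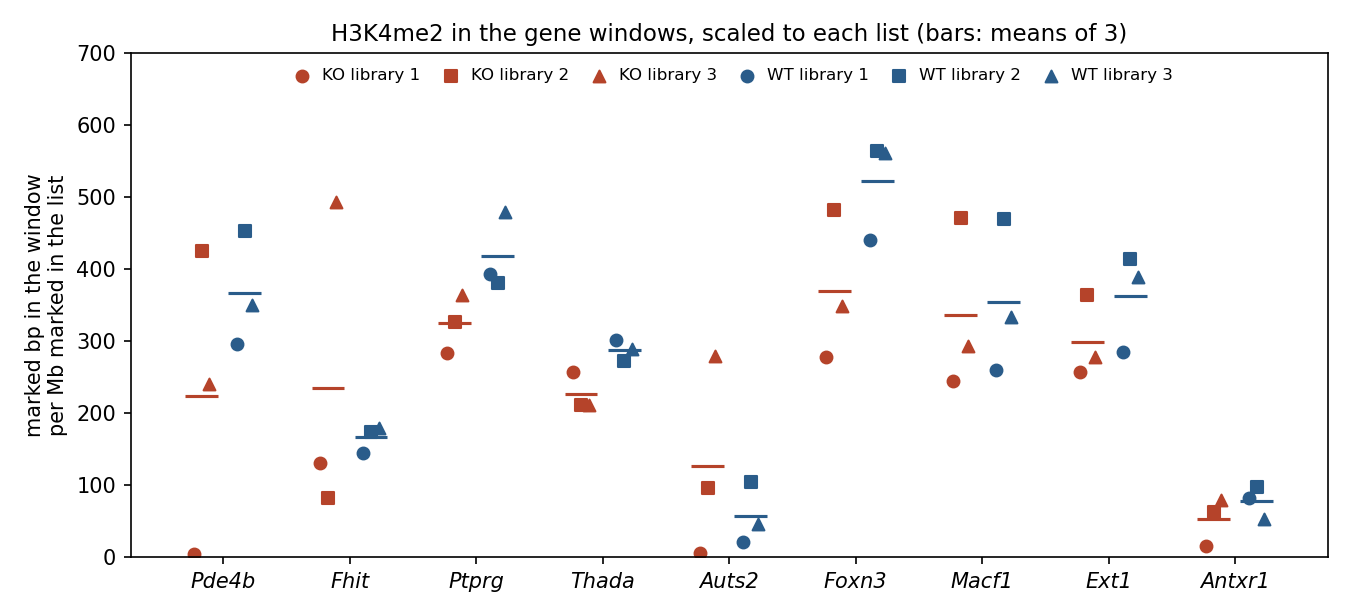
H3K4me2 in each gene window as marked bp per Mb marked in the list (y axis), 1 point for each of 3 KO and 3 WT libraries, with bars at the group means. The genotypes part for Ptprg and Thada, and the high KO points of Fhit (493) and Auts2 (279) are library 3.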

How the data were processed

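Per the submitters' processing notes, HOMER, MACS2 2.0.10.20131216, Picard and Bowtie2 2.2.3 were used with mm10; their roles are not given. For C/EBPα and V5 the deposited lists hold positions and peak names only. The deposited H3K4me2 lists add the authors' fold over background (a ratio), a score and −log10 p and q values per peak, of which −log10 q was used in an alternative. One list per library was deposited. Read depth is unknown. Genes, coordinates and promoters came from RefSeq GRCm38.p6.

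Members, gene lists and tests were chosen with earlier results of these data known. Named genes are the 9, the members of the paralog and long-gene lists as fixed, other genes with 4 or more lost regions and the nearest gene by counts. The fixed rule names 5 other genes with most lost regions; Itpr2, Maml3, Plce1 and Pard3 were added after their values were seen. Regions, windows and overlaps were computed with Python 3.11.15, numpy 2.4.6, pandas 2.3.3 and scipy 1.17.1, and the counting code was tested on simulated data. H3K4me2 was tested by exact permutation over libraries, two-sided. Whether replicates come from separate animals is not stated, so p-values measure the spread between these libraries. Same-numbered KO and WT H3K4me2 libraries are not described as pairs. Alternatives covered flank, merging, peak width, −log10 q, overlap, length range, scaling and leaving out each library. The 10 input samples were not used.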

Additional observations from a re-analysis of the deposited data

How the results depend on the processing

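The lost share of the 9 genes stayed between 44.3% and 55.8% over the alternatives run, and 8 or 9 of the 9 genes lay above the median of like-length genes. The genes were chosen on the same C/EBPα lists, which favours both values, so these are descriptions and no support. For the count above the median, the 50 kb flank, the 500 bp merging and the minimum width were added after seeing the data, and gave 9, 9 and 8. Counts depended on which peaks entered. The 16178 widest peaks of each list gave 27 lost (0.484 per 100 kb) and 3 gained regions, and peaks of at least the median width 19 lost (0.341 per 100 kb). With the widest peaks the genome had 1549 gained regions, against 749 with all peaks. Leaving out each library gave 43 to 58 lost regions (0.771 to 1.04 per 100 kb) and 1 to 5 gained. This loosens the definitions, since 1 list of that genotype then decides presence or absence. Such counts can only stay or rise. With each library left out, the lost share of the genome was 22.1% to 30.1%, against 19.3% with all libraries, and its gained regions numbered 954 to 2363. Both the 58 lost regions and the 30.1% came without WT library 1. H3K4me2 in at least 2 KO lists fell on 4.88% of lost and 39.5% of retained regions when a peak had to cover 50% of the region. With −log10 q at or above the pooled median it was 4.88% and 28.9%, and 26.8% of lost regions in WT. Leaving out libraries gave 4.88% to 17.1% of lost and 26.3% to 57.9% of retained regions in KO, and 26.8% to 36.6% of lost regions in WT. By construction these H3K4me2 shares can only stay or fall. The first 2 settings count fewer overlaps, and with a library left out both remaining lists had to mark a region. Other causes were not tested. ARID1A shares moved less than their intervals.

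The summed H3K4me2 log2 ratio of KO to WT over the 9 windows was -0.25 (0.02 unscaled; -0.39 to -0.03 with 1 library left out). Single genes turned direction: with the stricter −log10 q, Fhit was -0.25, Auts2 -0.014 and Macf1 0.27, and unscaled, Macf1 was 0.080. With 1 library left out, Fhit ran from -0.64 (without KO library 3) to 0.91, Auts2 from -0.18 (without KO library 3) to 1.92 and Macf1 from -0.40 to 0.18, positive without KO library 1 (0.11), KO library 3 (0.015) or WT library 2 (0.18). Same-numbered KO and WT libraries deviated together with r of 0.52, 0.52 and 0.03, and differently numbered ones with r from -0.59 to 0.25. As 1 of 3 was under 0.1 and nothing else ties the numbers, they were not treated as pairs; KO library 3 correlated best with WT library 2 (0.20). With the replicate block the sum was -0.29 and no gene went below p = 0.25, the smallest of that exact paired permutation. Peak lists without read depth cannot show whether a missing peak is weak or absent.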
